A study of Homo sapiens with 8 samples.

Results

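The cadherin and protocadherin genes of the array were examined in a pair of human liver cell lines given an epigenetic inhibitor. Members were the gene symbols of the array annotation that read PCDH or CDH followed by a number, with cluster and suffix letters allowed, which gave 34 of 14884 symbols. Of these, 32 are protocadherins and 2 are CDH-named cadherins (CDH23 and CDH26). The protocadherins comprise 19 genes of the beta cluster (16 genes and 3 pseudogenes), 5 of the delta1 class (PCDH1, PCDH7, PCDH9, PCDH11X and PCDH11Y), 5 of the delta2 class (PCDH8, PCDH10, PCDH17, PCDH18 and PCDH19) and 3 other solitary genes (PCDH12, PCDH15 and PCDH20). CDH1, CDH2, CDH5, CDH11 and the alpha and gamma protocadherin clusters had no symbol in the annotation used and were not analysed here. PCDH11Y is counted among the members without its levels.

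HepG2 is a liver tumour line that the submitters label hepatocellular carcinoma and that is now regarded as derived from a hepatoblastoma, and LX2 is a line of hepatic stellate cells, the vitamin A-storing cells that make scar matrix in injured liver. The LX2 control and HepG2 control groups received 0.1% DMSO, and the LX2 CM272 and HepG2 CM272 groups received 400 nM CM272, each for 48 h. CM272 blocks the histone methyltransferase G9a (gene EHMT2) and the maintenance DNA methyltransferase DNMT1 together. Each group had 2 arrays, LX2 was held in 2% serum and HepG2 in 10%, so line and serum cannot be told apart.

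Cadherins are calcium-dependent adhesion proteins of the cell surface. Classical cadherins tie neighbouring cells together through catenins and actin, whereas protocadherins lack the catenin-binding tail and adhere more weakly, mostly between like molecules. Delta protocadherins are best known from the developing brain, where several delta2 members recruit the WAVE complex that builds branched actin. The beta genes stand in a row on chromosome 5, each with a promoter of its own, and single neurons use only a few of them. That choice depends on promoter DNA methylation and on the insulator protein CTCF. Promoters of several solitary protocadherins, PCDH10 among them, are known to be methylated and silent in carcinomas.

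Values are log2 expression values, on which 1 unit is a doubling, and each array gave 1 value per gene. Every difference comes from 1 limma fit over the 8 arrays with Benjamini-Hochberg adjustment over all 14884 symbols, and a gene was called at an adjusted p under 0.05. Every n is 2 arrays per group, and whether a pair came from different cultures is not in the labels, so a p-value here covers only the spread between arrays. Replicate arrays correlated across genes at 0.978 to 0.993 (genes are not independent replicates), and the LX2 CM272 pair stood furthest apart, with a median absolute difference over the members of 0.33 against 0.14 to 0.24 in the other groups. The hepatocyte markers measured (8 of 10) had array medians of 12.14 to 12.26 in HepG2 and 3.74 to 4.06 in LX2, and the mesenchymal marker VIM averaged 10.19 in LX2 control and 3.67 in HepG2 control. Of the 34 members, 23 exceeded log2 4 on both arrays of at least 1 group, a level used here as a mark of brightness. The 11 others did so in no group, although single arrays could pass that level, as PCDH20 did at 4.62 in LX2 CM272 replicate 1.

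With CM272, 4 of the 34 members rose in LX2 and 0 fell. The 4 were the delta2 genes PCDH10, PCDH17 and PCDH18 and the delta1 gene PCDH9. That is 11.8% of the members, where limma called 5.11% of all symbols in this comparison, 2.43% higher and 2.67% lower. The median difference of the members was 0.06, and that of all symbols was 0.00. Among the delta2 genes 3 of 5 rose, all 5 differences were positive, and their median was 1.17. Among the delta1 genes 1 of 5 rose, with a median of 0.25. In bulk RNA, fewer cells of a type and less RNA per cell cannot be told apart.

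PCDH10, a delta2 protocadherin known from axon guidance and as a gene silenced in several carcinomas, was at 5.62 and 5.49 on the LX2 control arrays and at 8.20 and 8.54 on the LX2 CM272 arrays. Both treated arrays lay far above both controls. The mean went from 5.56 ± 0.09 to 8.37 ± 0.24 (SD, n = 2), a log2 difference of 2.81 (SE 0.19, 95% interval 2.39 to 3.24), or 7.03-fold, with a limma adjusted p of 0.000145. It ranked 9 from the top among the 14884 symbols. The call held with any 1 array left out, at 2.64 to 2.98.

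PCDH17, a delta2 protein of synapses, was at 7.09 and 7.06 in LX2 control and at 8.35 and 8.36 in LX2 CM272. The pairs were tight and did not overlap. The difference was 1.28 (SE 0.20, 95% interval 0.84 to 1.73, limma adjusted p = 0.0116), or 2.43-fold. Without LX2 control replicate 1 or 2 the difference was 1.29 or 1.27 and the adjusted p was 0.0986 or 0.124, so the call rests on both control arrays. A second probe set of PCDH17 was at 4.89 and 4.79 in LX2 control and at 5.25 and 5.54 in LX2 CM272, again without overlap. Its difference of 0.55 (SE 0.19) did not pass the test (limma adjusted p = 0.132, every probe set in the fit), and which strand either probe set reads is not known here.

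PCDH18, a delta2 protein, was at 5.57 and 5.77 in LX2 control and at 6.64 and 7.04 in LX2 CM272. Both treated arrays were higher than both controls. The difference was 1.17 (SE 0.17, 95% interval 0.78 to 1.57, limma adjusted p = 0.01), or 2.26-fold. Without LX2 control replicate 1 or 2 the adjusted p was 0.11 or 0.0913, and it was 0.0557 with the LX2 arrays fitted alone.

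PCDH9, a delta1 gene with broad expression in brain, was at 5.67 and 5.61 in LX2 control and at 6.30 and 6.32 in LX2 CM272. The pairs were again tight and apart. The rise was 0.67 (SE 0.13, 95% interval 0.37 to 0.97, limma adjusted p = 0.0276), or 1.59-fold. This call was the least firm of the 4. It was lost without either LX2 control array (adjusted p = 0.151 and 0.203), without either HepG2 control array (0.0584) and without either HepG2 CM272 array (0.051), always at 0.64 to 0.70. A second, dim probe set of PCDH9 lay between 1.64 and 2.37 on all 8 arrays and showed -0.18 (SE 0.22, limma adjusted p = 0.708). The mean of both probe sets gave 0.25 (limma adjusted p = 0.413). Which strand either probe set reads is not known here, so that mean may not measure PCDH9 alone.

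**Figure D1:**
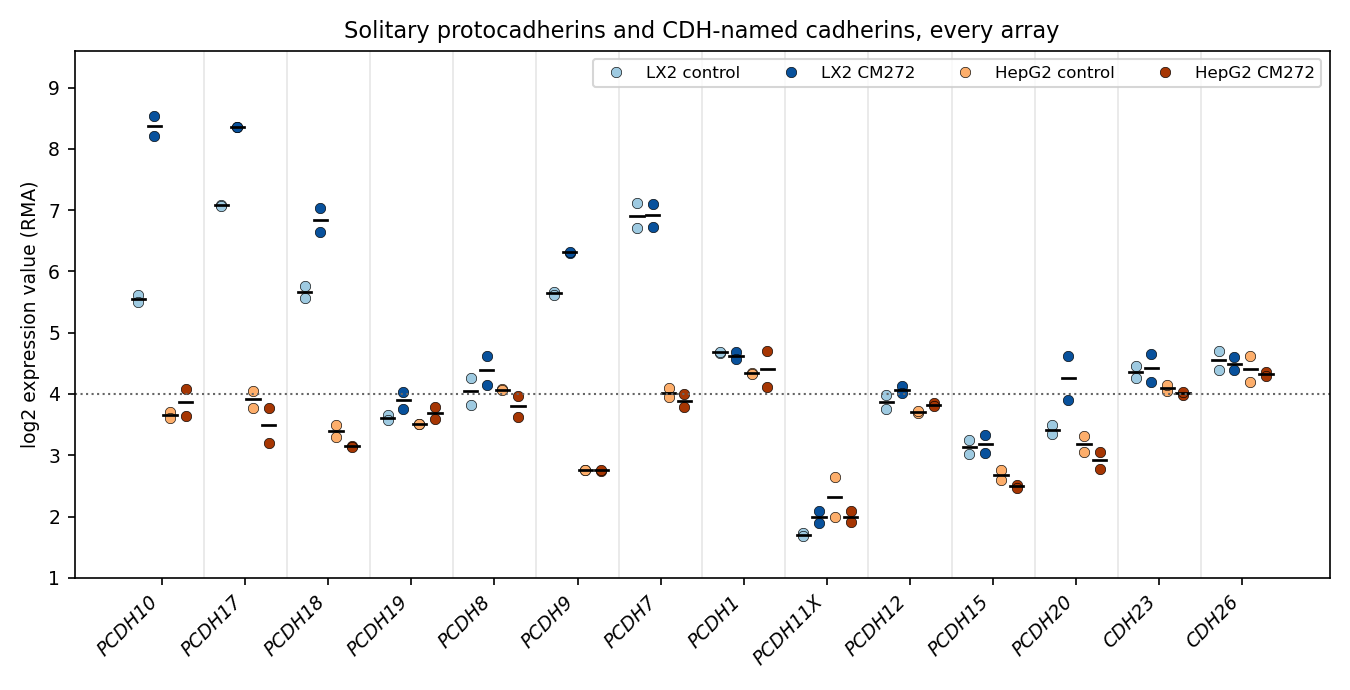
Each point is 1 array's log2 expression value (vertical axis) for the 12 solitary protocadherins with printed levels and the CDH-named cadherins CDH23 and CDH26 (horizontal axis). Colours give the 4 groups, bars the group means, and the dotted line log2 4. PCDH10, PCDH17, PCDH18 and PCDH9 stand higher in LX2 CM272 than in LX2 control, and all 4 are lower in both HepG2 groups than in LX2 control.

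Of the members that rose, PCDH17, PCDH18 and PCDH9 had a promoter window, and that of PCDH17 is not printed. The promoters of PCDH18 and PCDH9 are shown, each from a window placed at the outermost gene start. Both are the 250 bases before that start in RefSeq on GRCh38.p14, written 5′ to 3′ on the minus strand, on which both genes are encoded. PCDH18 lies at chr4:137532495-137532744 and PCDH9 at chr13:67230337-67230586. Capitals mark CG pairs, the sites that DNMT1 keeps methylated.
PCDH18: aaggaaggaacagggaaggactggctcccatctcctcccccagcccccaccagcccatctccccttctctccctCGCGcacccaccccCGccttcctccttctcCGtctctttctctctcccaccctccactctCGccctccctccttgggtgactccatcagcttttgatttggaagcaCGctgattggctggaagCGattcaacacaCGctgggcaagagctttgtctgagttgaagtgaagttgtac
PCDH9: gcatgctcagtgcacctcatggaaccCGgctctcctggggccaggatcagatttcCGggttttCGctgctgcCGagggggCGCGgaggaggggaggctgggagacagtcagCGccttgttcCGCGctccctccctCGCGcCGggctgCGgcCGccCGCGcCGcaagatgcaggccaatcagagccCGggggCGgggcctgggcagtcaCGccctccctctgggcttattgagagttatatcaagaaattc
The stretch of PCDH18 holds 8 CG pairs and that of PCDH9 holds 20. No methylation was measured in this series, so these letters only show where CG pairs stand.

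In RefSeq windows of 300 bases (250 before and 50 after a start), 27 members had 34 windows. The median number of CG pairs was 8 over the members' windows, with a range of 1 to 43, and 14 over all 35116 windows of the table. Among the genes that rose, PCDH17 had 11, PCDH18 had 10 and PCDH9 had 20. Among delta genes that were not called in LX2, PCDH19 had 26, PCDH8 had 20, PCDH7 had 16 and PCDH1 had 6, while PCDH11X had 17 and 2 in its 2 windows. So counts of uncalled delta genes lay above, among and below those of the genes that rose. PCDH10, PCDH20, PCDHB6, PCDHB11, PCDHB17P, PCDHB18P and PCDHB19P had no entry.

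The other solitary genes did not pass the test in LX2. PCDH20, a solitary protocadherin, was at 3.35 and 3.49 in LX2 control and at 4.62 and 3.91 in LX2 CM272. Both treated arrays were higher, but they were far apart, and the difference of 0.84 (SE 0.23) had an adjusted p of 0.0698 by limma. Without LX2 CM272 replicate 2, the lower treated array, it was 1.20 with an adjusted p of 0.015, and without LX2 CM272 replicate 1 it was 0.49 (0.184). PCDH19, the X-linked gene of a childhood epilepsy, was at 3.65 and 3.57 in control and at 4.04 and 3.76 with CM272, without overlap, with a difference of 0.29 (limma adjusted p = 0.323). PCDH8, an activity-regulated protein of synapses, was at 4.26 and 3.82 against 4.62 and 4.15, and its groups overlapped (difference 0.35, adjusted p = 0.4).

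PCDH7, a delta1 protein well over log2 4 in LX2, did not pass the test there. It was at 6.70 and 7.11 in LX2 control and at 6.73 and 7.11 in LX2 CM272, with a difference of 0.01 (95% interval -0.43 to 0.45, limma adjusted p = 0.983). PCDH1, known from airway epithelium, showed -0.06 (95% interval -0.49 to 0.38). PCDH12, a protocadherin of endothelial cells, was at 3.99 and 3.75 in LX2 control and at 4.12 and 4.01 in LX2 CM272, with 0.20 (adjusted p = 0.484). The groups of PCDH7 and PCDH1 overlapped, and those of PCDH12 did not. CDH23 and PCDH15, which together form the tip link of inner-ear hair cells, showed 0.06 and 0.05, and CDH26, a cadherin of inflamed epithelium, showed -0.05, from 4.70 and 4.39 in control to 4.61 and 4.39 with CM272.

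No member was called in HepG2 with CM272. The count by limma was 0 of 34 at the adjusted threshold and 0 of 34 at an unadjusted p under 0.05, where 10.1% of all symbols reached the latter. The adjusted test called 2 of 14884 symbols (0.0134%), 1 higher (0.00672%) and 1 lower (0.00672%), so a count of 0 is near the background. Differences ran from -0.55 for PCDHB15 to 0.52 for PCDHB14, with a median of 0.06 over the members and -0.01 over all symbols.

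The 4 genes that rose in LX2 were low in HepG2 with and without CM272. PCDH10 was at 3.71 and 3.60 in HepG2 control and at 3.64 and 4.08 in HepG2 CM272, with a difference of 0.21 (95% interval -0.22 to 0.63, limma adjusted p = 0.78). These groups overlapped, and the upper bound lies below the lower bound of 2.39 in LX2. PCDH17 was at 4.05 and 3.77 against 3.77 and 3.21, a difference of -0.42 (95% interval -0.87 to 0.02, adjusted p = 0.517). PCDH18 was at 3.49 and 3.29 against 3.15 and 3.14, both treated arrays a little lower (difference -0.25, adjusted p = 0.683). PCDH9 was at 2.76 on both HepG2 control arrays and at 2.75 and 2.76 with CM272, with a difference of -0.01 (adjusted p = 0.995).

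The difference between the lines was tested directly as the CM272 effect in HepG2 minus that in LX2. It was called for 3 of 34 members (8.82%), all of them lower in HepG2, and for 0.531% of all symbols (0.403% lower and 0.128% higher). The 3 were the delta2 genes PCDH10 at -2.61 (SE 0.27, 95% interval -3.21 to -2.01, limma adjusted p = 0.00455), PCDH17 at -1.70 (SE 0.28, adjusted p = 0.0416) and PCDH18 at -1.42 (SE 0.25, adjusted p = 0.0476). All 5 delta2 genes had a negative value, with a median of -1.42 beside 0.00 over all symbols. PCDH9 at -0.68 (adjusted p = 0.145) and PCDH20 at -1.11 (adjusted p = 0.165) did not pass, so for PCDH9 a difference between the lines was not shown.

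These calls rest on single arrays to different degrees. PCDH10 missed the threshold only without LX2 control replicate 2, at -2.54 with a limma adjusted p of 0.0506. PCDH17 passed only without HepG2 CM272 replicate 1, at -1.99 (adjusted p = 0.0229), and with any other array left out its adjusted p was 0.0504 to 0.195. PCDH18 passed without LX2 CM272 replicate 1 or 2, and with any other array left out its adjusted p was 0.116 to 0.214. The mean of both PCDH17 probe sets gave -1.19 (adjusted p = 0.0889), and the second probe set alone -0.68 (adjusted p = 0.275).

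**Figure D2:**
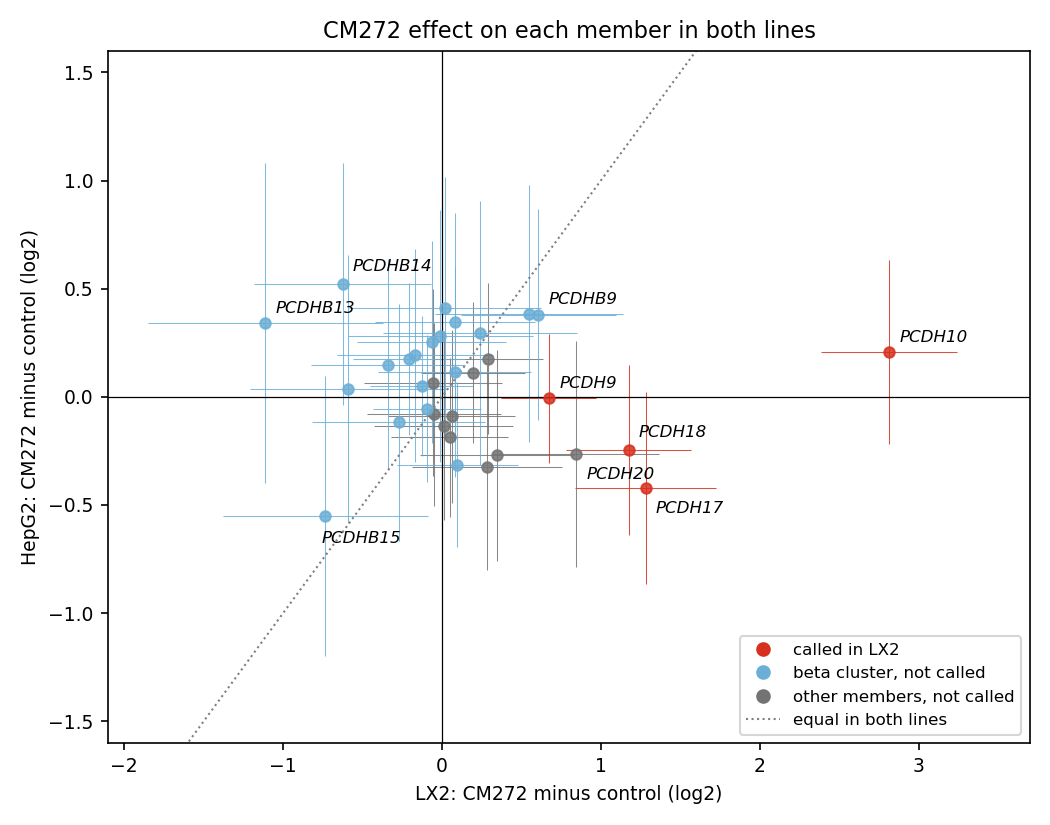
Each point is 1 of 33 members (PCDH11Y not drawn), with the CM272 minus control log2 difference in LX2 on the horizontal axis and in HepG2 on the vertical axis; bars are 95% intervals of the limma fit. The 4 red points, called in LX2, lie to the right between 0.67 and 2.81 and within 0.42 of 0 in HepG2. They lie off the dotted line of equal change, but for PCDH9 the difference between the lines was not called (limma adjusted p = 0.145).

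The next comparison asks how the untreated lines differ in these genes. In the controls, 24 of 34 members were called: 21 were lower in HepG2 than in LX2 (61.8%) and 3 were higher (8.82%). Over all symbols 50.8% were called, 34.8% lower and 16.0% higher. Both HepG2 control arrays lay below both LX2 control arrays for 27 of the 34 members, beside 51.7% of all symbols. They lay above them for 3 of the 34, beside 27.4% of all symbols. The median difference was -0.83 over the members and -0.21 over all symbols. Quantile normalization of the 8 arrays moved the median of all symbols to 0.05 and left 19 members called, 16 lower and 3 higher, beside 7243 of the 14884 symbols. On both arrays of a group, 20 members were over log2 4 in LX2 control and 8 in HepG2 control, and 20 and 6 with CM272, while the share of all symbols over that level was 76.3% and 70.8% in the controls.

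Of the 15 members outside the beta cluster, 7 were lower in HepG2 and 1 was higher, beside 34.8% and 16.0% of all symbols. PCDH17 was lower by a log2 difference of -3.17 (SE 0.20, limma adjusted p = 1.21e-06), PCDH7 by -2.88 (SE 0.19), PCDH9 by -2.88 (SE 0.13), PCDH18 by -2.27 (SE 0.17) and PCDH10 by -1.90 (SE 0.19). In each of them both HepG2 control arrays lay below both LX2 control arrays. So the 4 genes that rose with CM272 in LX2 were also among those already higher in LX2 without it. Both comparisons share the LX2 control arrays. PCDH11X, an X-linked delta1 gene, was at 1.73 and 1.68 in LX2 control and at 2.65 and 2.00 in HepG2 control, all dim. Its difference of 0.62 (limma adjusted p = 0.0339) was 0.29 without HepG2 control replicate 1 (adjusted p = 0.274), and the adjusted p was 0.107 or 0.129 without LX2 control replicate 1 or 2.

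Within the beta cluster, most genes were lower in HepG2 and a neighbouring pair was higher. Of its 19 genes, 14 were lower in HepG2, 2 were higher and 3 were not called, beside 34.8% lower and 16.0% higher over all symbols. The 2 higher genes, PCDHB2 and PCDHB3, are neighbours, at places 2 and 3 of the row. PCDHB2 was at 4.46 and 4.51 in LX2 control and at 5.95 and 5.89 in HepG2 control, without overlap (difference 1.44, SE 0.14, limma adjusted p = 2.8e-05). PCDHB3 was at 3.82 and 3.91 against 4.59 and 4.61, also without overlap. Its difference of 0.73 (adjusted p = 0.0483) missed the threshold without any 1 of the LX2 control, HepG2 control or HepG2 CM272 arrays (adjusted p = 0.0562 to 0.17).

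From PCDHB4 to the end of the row, every beta gene except PCDHB6 and the pseudogene PCDHB19P was called lower in HepG2. PCDHB5 was at 5.44 and 5.56 in LX2 control and at 2.84 and 2.81 in HepG2 control (difference -2.67, SE 0.21, limma adjusted p = 5.19e-06). PCDHB16, at 6.60 and 6.44 against 4.11 and 4.36, differed by -2.28 (SE 0.28, adjusted p = 0.000102). PCDHB8, which was dim in HepG2 at 1.71 and 1.76 against 3.88 and 4.12, differed by -2.26, and PCDHB12 by -2.23. The groups of these genes did not overlap. Because the beta genes are close relatives in sequence, a probe set may pick up transcripts of a neighbour, which was not tested; none of the 34 members shared all its values with another symbol.

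**Figure D3:**
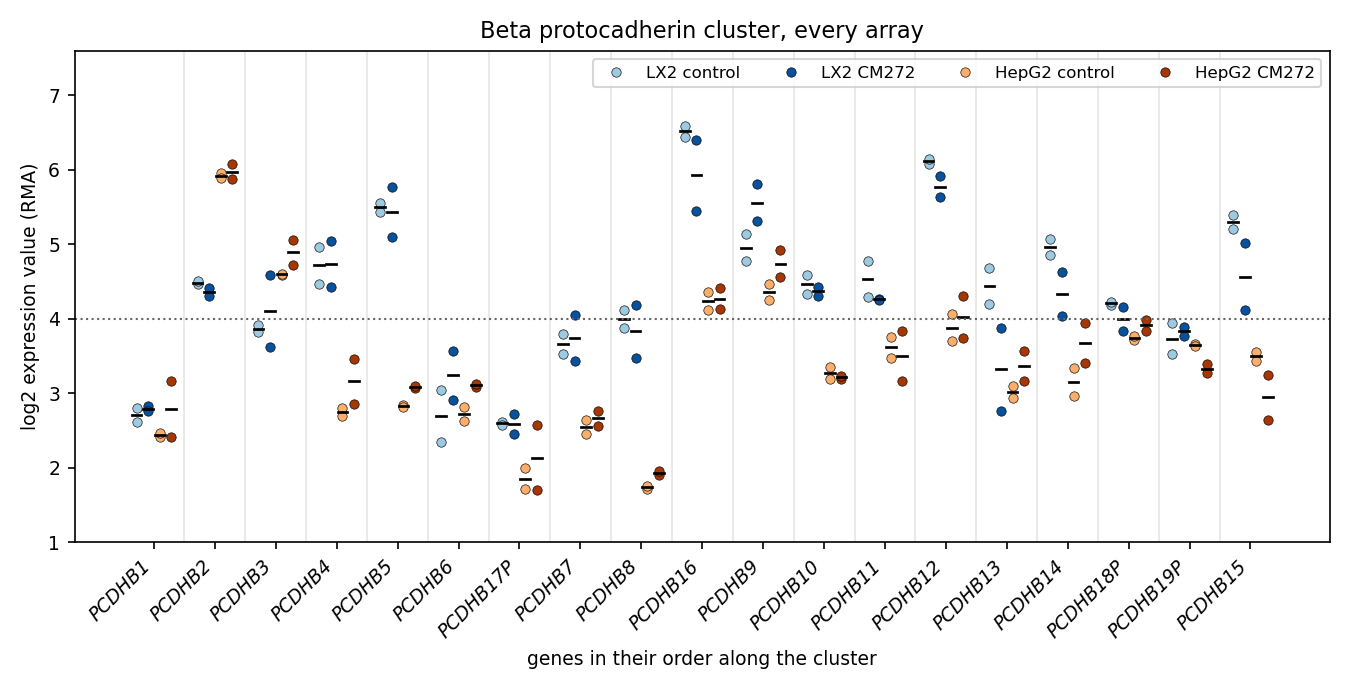
Each point is 1 array's log2 expression value (vertical axis) for the 19 genes of the beta cluster in their order along the chromosome (horizontal axis). Colours give the 4 groups, bars the group means, and the dotted line log2 4. PCDHB2 and PCDHB3 are higher in HepG2 control than in LX2 control, whereas 14 genes are lower there.

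The beta promoters are shown because most of their windows hold a sequence that the other members' windows lack. They are RefSeq sequences on GRCh38.p14, plus strand, 5′ to 3′, from before the gene start. PCDHB5 is chr5:141135165-141135205, PCDHB16 is chr5:141182296-141182355, PCDHB9 is chr5:141187060-141187119 and PCDHB2 is chr5:141094530-141094589. Capitals mark GGTGGCGCTG, which was chosen as the run of 10 bases that stands in the most beta windows.
PCDHB5: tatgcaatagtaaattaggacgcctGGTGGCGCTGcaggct
PCDHB16: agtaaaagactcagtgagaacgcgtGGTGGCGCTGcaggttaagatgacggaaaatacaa
PCDHB9: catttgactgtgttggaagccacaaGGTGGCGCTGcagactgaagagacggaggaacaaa
PCDHB2: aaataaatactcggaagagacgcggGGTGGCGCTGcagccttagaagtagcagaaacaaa
These stretches were cut around the 10 letters, so that they carry them was fixed in advance. Of the genes called higher in HepG2 control, PCDHB2 and PCDHB3 both hold the letters in their windows. Among those called lower there, PCDHB5, PCDHB16 and PCDHB9 hold them and PCDHB14 does not.

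Searched on both strands (reverse complement CAGCGCCACC), these letters were in 12 of 14 beta windows (85.7%), always in the direction of the gene, with the first base between -84 and -2 from the start. They were in 0 of 20 windows of the other members and in 97 of all 35116 windows (0.276%). Outside the beta cluster they were in 85 of 35102 windows (0.242%). The run was chosen from the beta windows themselves, so its high share there is not an independent result. PCDHB1 and PCDHB14 had no match. The shorter CGCT (reverse complement AGCG) lies within the longer run and is the core of the promoter element known from clustered protocadherins. It was in 14 of 14 beta windows, in 28 of all 34 members' windows (82.4%) and in 70.0% of all windows, so it is common in promoters. A match describes letters and is not evidence of binding.

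With CM272, 0 of 19 beta genes were called in either line. Among all 34 members, both treated arrays lay above both controls for 10 (29.4%) in LX2 and 11 (32.4%) in HepG2, and below for 8 (23.5%) and 6 (17.6%). For the beta genes in LX2 the median difference was -0.09, with 7 positive and 12 negative values. Both treated arrays lay above both controls for 1 of the 19, PCDHB9, and below for 8. Over all symbols those shares were 23.8% and 25.4%. In HepG2 the median was 0.19, with 15 positive and 4 negative, 9 genes with both treated arrays above and 2 with both below, beside 20.8% and 25.4% of all symbols. No test of the cluster as a whole was made.

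PCDHB13 was at 4.68 and 4.19 in LX2 control and at 2.77 and 3.88 in LX2 CM272. The treated arrays were lower but far apart, and the difference of -1.11 (SE 0.33) did not pass (limma adjusted p = 0.0852). PCDHB15 was at 5.40 and 5.20 in control and at 4.12 and 5.01 with CM272 (-0.73, adjusted p = 0.178). PCDHB16 was at 6.60 and 6.44 in control and at 5.45 and 6.41 with CM272 (-0.59, adjusted p = 0.253). In all 3 the lower value was that of LX2 CM272 replicate 1.

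Without LX2 CM272 replicate 2, PCDHB13 at -1.67 (limma adjusted p = 0.0146), PCDHB15 at -1.18 (0.0299) and PCDHB16 at -1.07 (0.0187) were called lower. Without LX2 CM272 replicate 1 the values were -0.56 (adjusted p = 0.249), -0.29 (0.546) and -0.11 (0.774). PCDHB3 and PCDH20 were also called higher without LX2 CM272 replicate 2, and the count of members called went from 4 to 9, while that of all symbols went from 760 to 1931. Without LX2 control replicate 1 or 2 it was 1 member, PCDH10 alone, and 42 or 34 symbols in all. Replicate 1 was lower than replicate 2 of LX2 CM272 for 11 of the 19 beta genes, with a median difference between them of -0.29 and a range of -1.11 to 0.96. Its part in these values was not tested.

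PCDHB14 had lower treated arrays in LX2, at 4.04 and 4.63 against 4.86 and 5.07 in control. In HepG2 they were higher, at 3.94 and 3.41 against 3.34 and 2.96. The arrays did not overlap in either line, yet neither difference passed (-0.63 and 0.52, limma adjusted p = 0.182 and 0.52). With an array left out the LX2 value ran from -0.92 to -0.33. The difference between the lines was 1.15 (SE 0.35, adjusted p = 0.173). PCDHB9 had higher treated arrays in both lines, from 5.14 and 4.77 to 5.80 and 5.32 in LX2 (0.61, adjusted p = 0.144, and 0.36 to 0.85 with an array left out) and from 4.47 and 4.25 to 4.92 and 4.57 in HepG2 (0.38, adjusted p = 0.595). Among the pseudogenes, PCDHB18P was at 4.18 and 4.23 in LX2 control and at 4.16 and 3.83 in LX2 CM272 (-0.21, adjusted p = 0.497).

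**Figure D4:**
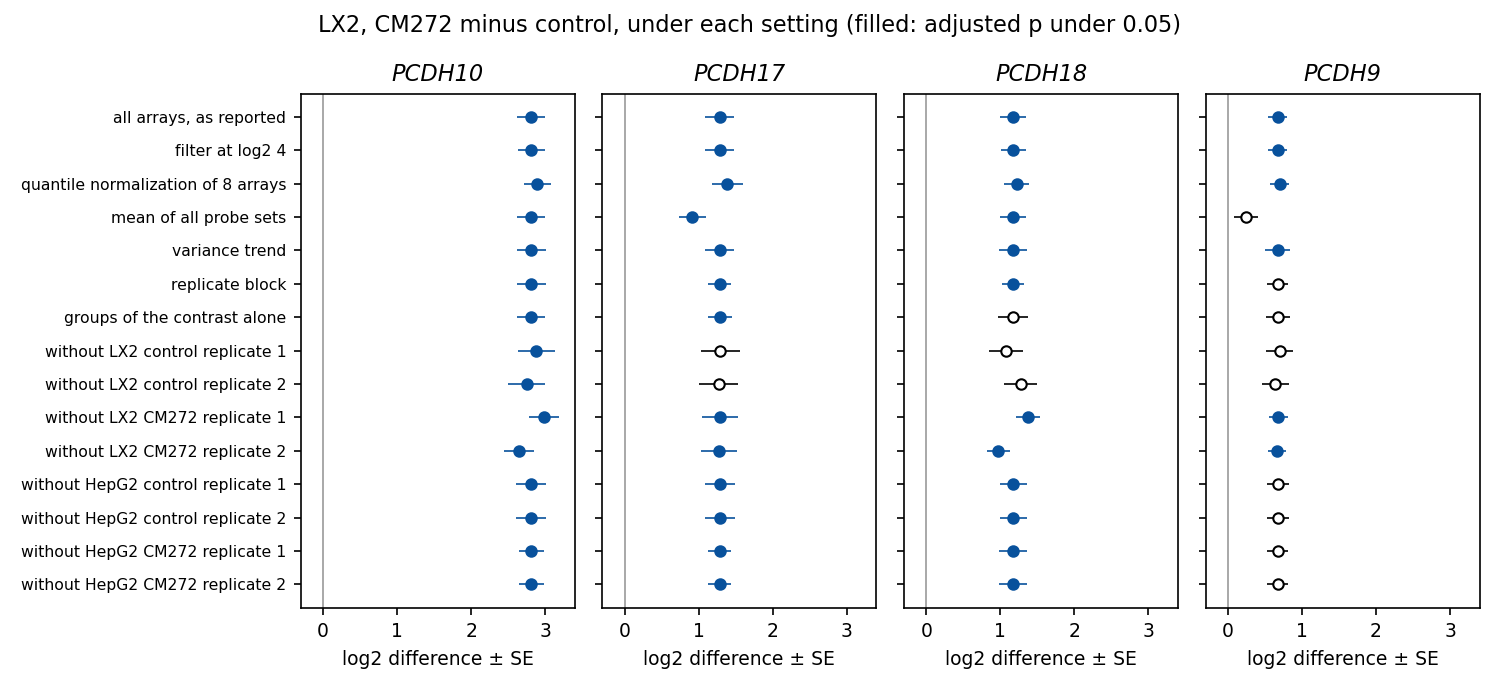
The log2 difference of CM272 minus control in LX2 (horizontal axis, with its SE as bar) is drawn for PCDH10, PCDH17, PCDH18 and PCDH9 under each of 15 settings (vertical axis). Filled points passed an adjusted p of 0.05. PCDH10 is filled throughout, and the other 3 are open without either LX2 control array. Averaging probe sets gives 0.92 for PCDH17 and 0.25 for PCDH9, and PCDH18 ranges from 0.97 to 1.37 with an array left out.

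Genes of related roles were counted in LX2 beside the 5.11% of all symbols called. Of the catenins and their relatives, which link classical cadherins to the cytoskeleton, 7 of 16 were measured and 0 were called. VCL (vinculin) showed -0.04 and JUP (plakoglobin) 0.50 (limma adjusted p = 0.0863). Of the cadherin superfamily outside the symbol rule 21 of 25 were measured and 1 was lower. This was DSG2, a desmosomal cadherin, which fell from 7.70 ± 0.05 to 6.46 ± 0.08 (SD, n = 2), a difference of -1.24 (SE 0.15, adjusted p = 0.00606). Without LX2 control replicate 1 or 2 its adjusted p was 0.0617 or 0.0877.

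Of the repressors of CDH1 and other regulators of the epithelial to mesenchymal transition, 16 of 17 were measured and 1 rose. SNAI1, a zinc finger repressor of CDH1, went from 6.13 ± 0.24 to 9.99 ± 0.03, a rise of 3.86 (SE 0.16, limma adjusted p = 3.29e-06). Its change differed between the lines by -4.04 (SE 0.22, adjusted p = 5.68e-05). CDH1 itself was not analysed here.

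Of the regulators of chromatin at the clustered protocadherins together with the CM272 targets, 18 of 20 were measured and 0 were called, with a median of -0.08. CTCF showed 0.04, the cohesin subunit SMC3 -0.31, EHMT2 0.02 and DNMT1 0.24. Of the signalling partners 10 of 21 were measured and 1 fell, NCKAP1, a subunit of the WAVE complex, with a difference of -0.73 (SE 0.16, limma adjusted p = 0.035). That call was lost without either LX2 control, without LX2 CM272 replicate 1 and without any 1 HepG2 array (adjusted p up to 0.233), and with quantile normalization (0.0627). In HepG2, 0 members of these 5 lists were called, beside 0.0134% of all symbols.

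Markers of other cell types were read beside the rises in LX2. Of 3 neuronal markers measured of 8, 0 were called; MAP2 was at 4.68 ± 0.14 in LX2 control and 5.37 ± 0.07 with CM272 (0.68, limma adjusted p = 0.0715), and the array medians of the list were 5.24 to 5.34 and 5.32 to 5.42. Of 6 epithelial markers measured of 7, 3 differences were positive and 3 negative, with a median of -0.05. EPCAM showed 0.07, OCLN -0.18, KRT8 -0.46 and KRT18 -0.49, none of them called. CLDN1 rose by 1.22 (limma adjusted p = 0.0298) and KRT19 by 0.67 (limma adjusted p = 0.0458). The array medians of this list were 5.42 to 5.57 in control and 5.75 to 5.99 with CM272. Of 4 leukocyte markers measured of 8, CD68 showed -0.01, LYZ -0.06 and CSF1R -0.27, and the median of the 4 differences was -0.03. CD14 rose by 1.12 (limma adjusted p = 0.0168), and the array medians of this list were 5.03 to 5.21 and 5.28 to 5.81. Each of these 3 calls was lost without either LX2 control array. KRT19 also failed without LX2 CM272 replicate 2 or any HepG2 array, CLDN1 without either HepG2 control array and CD14 without LX2 CM272 replicate 1. With an array left out CLDN1 ran from 0.81 to 1.63, KRT19 from 0.51 to 0.82 and CD14 from 1.03 to 1.20. With the LX2 arrays alone the limma adjusted p was 0.0994 for CLDN1 and 0.143 for KRT19. Quantile normalization gave 0.104 for KRT19. Of 7 endothelial markers measured of 10, 0 were called, with 4.99 to 5.04 and 5.19 to 5.47, and of 8 hepatocyte markers 0 were called. Of 4 stellate and mesenchymal markers measured of 12, 0 were called, with 6.77 to 6.82 in control and 6.54 to 6.68 with CM272. Their part in the changes of the protocadherins was not tested.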

How the data were processed

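Total RNA (300 ng per sample) of 8 samples was hybridised to Affymetrix whole-transcript arrays, per the labels' protocols. The deposited table holds log2 values that the authors obtained with RMA, per the submitters' processing notes; the version and the genome build of the array design are not given in the sources used here. Values ran from 0.49 to 14.07, and array medians over all probe sets from 4.19 to 4.54. RMA is meant to equalise arrays, and it compresses differences of dim genes. Medians over the symbols still differed by line, at 5.53 to 5.58 on the LX2 arrays and 5.20 to 5.23 on the HepG2 arrays. Arrays give no read depth, and their number limits the precision.

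Of 48416 probe sets, 16098 (33.2%) had 1 symbol. For each of 14884 symbols the probe set brightest on average was taken (779 had more than 1), with no brightness filter. limma 3.58.1 in R 4.3.3 fitted a mean per group (4 residual and 5.21 prior degrees of freedom). Tests were two-sided, and an exact permutation of 2 against 2 arrays cannot go below p = 0.333. Named were members called in a treatment comparison, the largest called differences between untreated lines, the brightest of each class, and called or brightest members of the partner lists; any other member was chosen after its values were seen. Members and lists were chosen with earlier results of these data known. Scripts were tested on simulated data. Alternatives were a filter at log2 4, quantile normalization, the mean of probe sets, a variance trend, a replicate block, the groups alone and each array left out. Promoters are RefSeq windows on GRCh38.p14. Figures were drawn with matplotlib 3.10.9.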

Additional observations from a re-analysis of the deposited data

Results flagged for a closer look

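The CM272 effect differed between HepG2 and LX2 for 3 members by the test of the difference itself, all of the delta2 class. PCDH10 had a difference of -2.61 (SE 0.27, limma adjusted p = 0.00455), from 2.81 in LX2 and 0.21 in HepG2. PCDH17 had -1.70 (SE 0.28, limma adjusted p = 0.0416), from 1.28 and -0.42. PCDH18 had -1.42 (SE 0.25, limma adjusted p = 0.0476), from 1.17 and -0.25. In each gene the control level was lower in HepG2 than in LX2, with differences of -1.90, -3.17 and -2.27. Groups of 2 arrays were too small to look for outlying arrays.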

How the results depend on the processing

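With 2 arrays per group, arrays limit these results. The count of 4 members called in LX2 was 2 (PCDH10 and PCDH17) with the groups of the contrast alone, 1 to 9 with an array left out, and the same 4 genes with the filter, the trend or quantile normalization. The count of 3 members whose effect differed between lines was 0 to 4 with an array left out (0 without LX2 control replicate 2, and 1 without LX2 control replicate 1, HepG2 control replicate 1 or 2, or HepG2 CM272 replicate 2); the groups alone cannot give this difference. The count of 24 between the untreated lines was 16 to 25 and that in HepG2 0 under every alternative run.

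Same-numbered arrays deviated from their group means with correlations of 0.055 (LX2) and 0.052 (HepG2), so they shared little shift across genes. This cannot tell whether same-numbered samples were handled together. With the replicate block the counts were 3 in LX2 (PCDH9 lost, adjusted p = 0.0589), 0 in HepG2, 2 for the difference (PCDH18 lost, 0.0735) and 23 between lines. Over all symbols, 760 were called in LX2, 1031 with the filter, 1277 with the trend, 590 with quantile normalization, 368 with the block, 114 with LX2 alone and 34 to 1931 with an array left out. For the difference there were 79, and 145 with the filter, 235 with the trend, 41 with the block and 12 to 314 with an array left out.

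Signs turned for the following genes. In HepG2, PCDH10 ranged from -0.016 to 0.43 with an array left out, and PCDH9 was 0.0775 with the mean of its probe sets. In LX2, with an array left out, PCDH7 ranged from -0.19 to 0.22, CDH26 from -0.20 to 0.10, PCDH1 from -0.11 to 0.0026, CDH23 from -0.17 to 0.29, PCDH15 from -0.099 to 0.20, VCL from -0.088 to 0.003, CTCF from -0.051 to 0.14 and EHMT2 from -0.12 to 0.16. Quantile normalization gave -0.027 for CDH23, -0.023 for PCDH15 and 0.12 for VCL. The second PCDH9 probe set, an alternative chosen after seeing the data, gave -0.18 in LX2, 0.16 in HepG2 and 0.34 for the difference. The cause was not tested.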

Other observations

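The antisense transcripts PCDH9-AS2 and PCDH9-AS3 lie outside the symbol rule and were dim. PCDH9-AS2 was at 2.25 and 2.62 in LX2 control and at 2.05 and 2.01 in LX2 CM272, a difference of -0.40 (SE 0.19, limma adjusted p = 0.255). Both treated arrays were lower, while those of PCDH9 were higher. PCDH9-AS3 was at 1.82 and 1.62 in control and at 1.93 and 2.12 with CM272, a difference of 0.30 (SE 0.17, limma adjusted p = 0.337). In HepG2 neither was called, at 0.24 and 0.25.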
